A study of Caenorhabditis elegans with 16 samples.

Results

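The comparison described here is the interaction of curcumin and sulforaphane in the nematode *Caenorhabditis elegans*, that is, the genes for which giving both compounds together did not equal the sum of giving each alone. The design was 2 by 2, and all 16 of the 16 libraries of the study entered it, 4 in each of the 4 groups. For each gene the combination minus curcumin minus sulforaphane plus control was fitted, once on log2 means and once on linear means. On the log2 scale this asks whether the fold changes multiplied, and on the linear scale whether the changes in expression level added up. A gene above the sum had more transcript with both compounds than the separate changes give, and a gene below the sum had less.

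Messenger RNA with a polyA tail was sequenced from whole adults of strain SS104, which carries glp-4(bn2) in all 4 groups. This temperature-sensitive mutation blocks germline proliferation, and the worms were moved from 15 °C to 24 °C as larvae to make them sterile, so no group had an intact germline. They were kept on Defined Medium plates with *Escherichia coli* OP50 and collected on day 3 of adulthood. The bacterial lawns carried nothing in the untreated control. In the treated groups they carried curcumin as a phytosome (a phospholipid complex) at 5 mg/mL, sulforaphane at 0.625 mg/mL, or both at those doses. No vehicle is named for the control, so an effect of the phytosome lipid and an effect of curcumin itself cannot be told apart. The labels call the 4 libraries of each group independent biological replicates. Each is a pool of whole worms, in which fewer cells of a type and less RNA per cell cannot be told apart.

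Curcumin is a polyphenol from turmeric, and sulforaphane is an isothiocyanate from cruciferous vegetables. In the worm, as in mammals, sulforaphane is known to act on the electrophile response, which in *C. elegans* runs through the transcription factor SKN-1 and its glutathione S-transferase targets. The intestine is the worm's main organ for digestion, fat storage, detoxification and defence against swallowed bacteria. Many of its secreted proteins with C-type lectin, CUB-like, lysozyme or saposin domains are regulated by infection, by diet and by insulin signalling. When 2 compounds reach the same tissue, genes on which both act can add, saturate or cancel.

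Total counts per library ranged from 14315538 to 19964755, and between 18434 and 19027 genes had at least 1 read. Of 47029 listed genes, 14328 passed the count filter and were tested. The interaction draws on the spread within all 4 groups, and its SE is wider than that of a comparison of only 2 of them. Outside the msp family of sperm protein genes, the tested marker genes of the tissues were present in all libraries and none was at 0. Of the listed markers, 2 of 4 for the hypodermis, 1 of 2 for sperm and 26 of 35 msp genes passed the count filter. Summed markers of the germline had 272 to 436 CPM (read counts scaled to library size with TMM factors) over the 16 libraries, and sperm protein genes of the msp family 30.7 to 131, in spite of the sterile genotype. The 4 intestinal markers, *elt-2*, *ges-1*, *act-5* and *ifb-2*, summed to 584 to 670 CPM in the control, 367 to 388 with curcumin, 720 to 851 with sulforaphane and 367 to 448 with both. None of the tested markers was called for the log2 interaction, while *act-5* was below the sum on the linear scale at -129.7 CPM (SE 28.9, limma adjusted p 0.018).

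On the log2 scale, 142 genes had an interaction at an adjusted p under 0.05 in edgeR, which was 0.991% of the 14328 tested genes. Of these, 54 genes (0.377% of those tested) were above the sum and 88 (0.614%) were below it. The median interaction over all tested genes was 0.016 on the log2 scale. Among the 142 called genes, the size of the interaction ranged from 0.35 to 5.67 with a median of 0.76, and 39 exceeded 2-fold. At an unadjusted p under 0.05 there were 1296 genes. By comparison, 14.6% of genes were called for curcumin against control, 6.71% for sulforaphane and 23.1% for the combination. Most called genes were well expressed, 132 of 142 having a mean of at least 5 CPM, and 139 were protein coding. The count above the sum depended on sulforaphane replicate 4, without which it was 34.

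**Figure D1:**
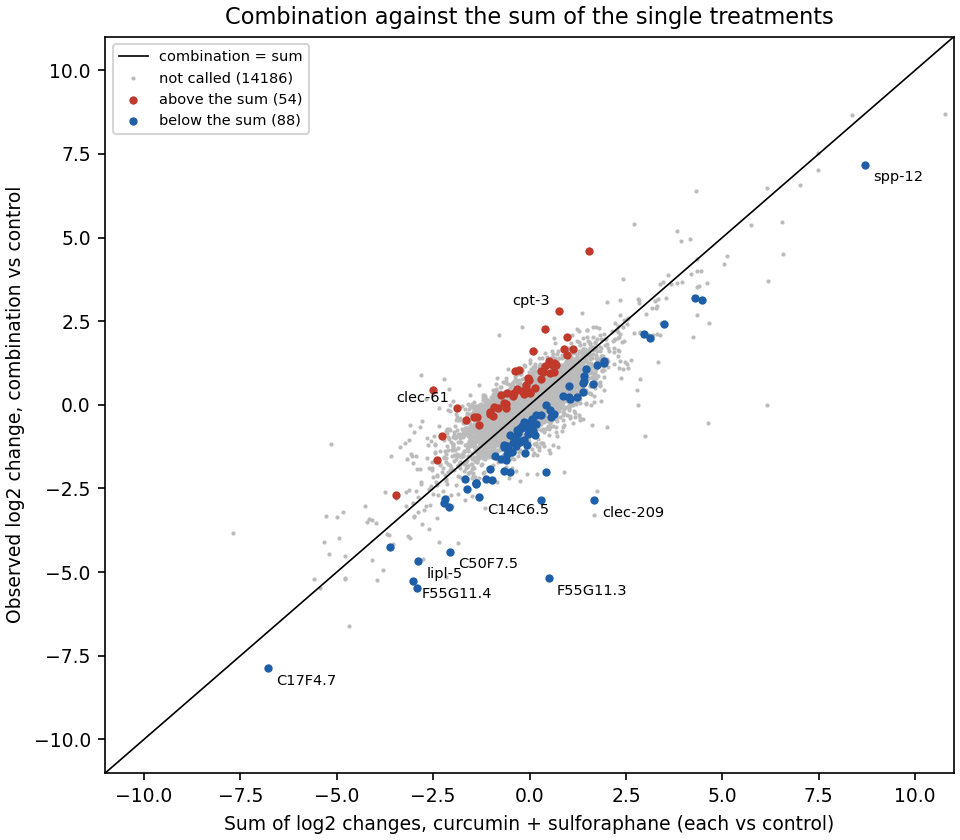
Observed log2 change of the combination against control (y axis) plotted over the sum of the separate log2 changes of curcumin and sulforaphane (x axis) for 14328 genes. The 54 red genes lie above the line of equality and the 88 blue genes below it, with *cpt-3*, F55G11.4, *lipl-5* and C50F7.5 among those farthest from it at high expression.

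The 142 genes were sorted by what each compound did alone, using the calls of the same fit. Because these calls share libraries with the interaction, the classes are a description without a test. The most frequent pattern, in 32 genes, was a change with the combination alone, where neither compound by itself was called. In 31 genes only curcumin was called alone and its change was larger when sulforaphane was added. A further 27 genes moved in opposite directions with the single compounds and ended on the curcumin side of the control, against 3 on the sulforaphane side. Both compounds moved 27 more genes the same way, of which 21 fell short of the sum and 6 exceeded it. A curcumin change was smaller with sulforaphane in 6 genes and turned in direction in 5. A sulforaphane change was larger with curcumin in 1 gene, smaller in 4 and turned in 5. Sides and turns were read from the sign of the combination against control, called or not. That change was called in 25 of the 27 genes on the curcumin side and 2 of the 3 on the sulforaphane side. It was called in 2 of the 5 genes whose curcumin change turned and 3 of the 5 whose sulforaphane change turned. The others that turned were not told apart from the control. The last gene had none of the 3 changes from control called.

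**Figure D2:**
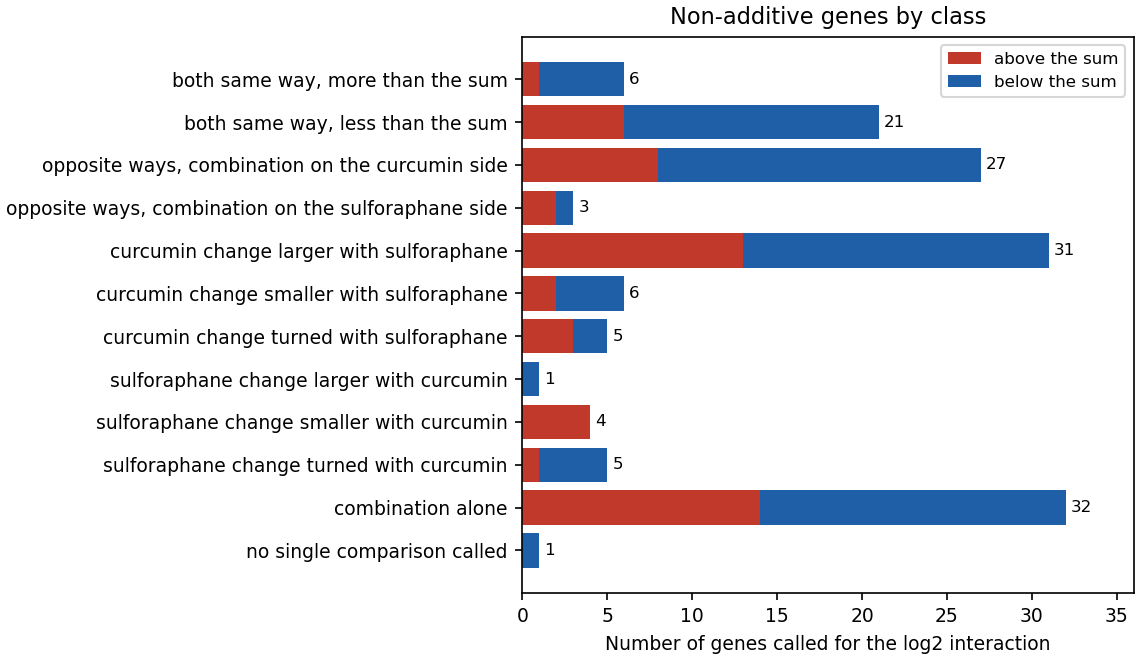
Number of genes called for the log2 interaction (x axis) in each class of response to the single compounds (y axis), split into genes above the sum (red) and below the sum (blue). The longest bars are the combination alone with 32 genes, the curcumin change that was larger with sulforaphane with 31, and opposite changes that ended on the curcumin side with 27.

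Set against the single treatments, the combination lay beyond both in most of the 142 genes. The combination was above both curcumin and sulforaphane in 34 genes and below both in 50, with both differences called. It lay between the single treatments in 7, differed only from sulforaphane in 31, only from curcumin in 14 and from neither in 6. Over all tested genes, 7.32% differed between the combination and curcumin and 18.8% between the combination and sulforaphane. The share beyond both over all tested genes is not given here. The 142 genes were picked by the interaction in the same libraries, so these counts too are a description without a test.

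Among abundant genes, 3 with large interactions were lowered by curcumin, not called for sulforaphane alone, and fell much further with both. F55G11.4 (NCBI Gene 178248, chromosome IV, 12973624 to 12975603, WBcel235 as all coordinates here) encodes a protein with a CUB-like domain, a family induced in the intestine by bacterial infection. It had 5254, 6115, 5203 and 4804 CPM in the control libraries, 675, 723, 634 and 590.0 with curcumin, 5258, 5719, 5263 and 5210.1 with sulforaphane and 153, 140.1, 132 and 126 with both. Control and sulforaphane libraries overlapped, all curcumin libraries were below them, and all combination libraries were lower still. Its interaction was -2.25 (SE 0.11, adjusted p 2.94e-12 in edgeR), the smallest adjusted p of any gene. Multiplying the single changes gives 658 CPM for the combination, and the observed level was 0.210 times that.

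The lysosomal-type lipase gene *lipl-5* (NCBI Gene 178563, chromosome V, 385746 to 387740), one of a family with members induced by fasting, showed the same order. *lipl-5* had 1233, 1211, 1029 and 975 CPM in the control libraries, 165, 174, 114 and 141 with curcumin, 1267, 1175, 1083 and 984 with sulforaphane and 43.2, 51.6, 43.7 and 36.6 with both. No curcumin library reached the lowest control or sulforaphane library, and no combination library reached the lowest curcumin library. The interaction was -1.78 (SE 0.16, adjusted p 6.64e-07 in edgeR). C50F7.5 (NCBI Gene 177554, chromosome IV, 7726719 to 7727639), a gene with no assigned function, had 2266, 2540.1, 1818 and 1498 CPM in the control libraries, 850.1, 741, 509 and 467 with curcumin, 1710.1, 1595, 1529 and 1317 with sulforaphane and 105, 98.9, 79.2 and 102 with both. Its control and sulforaphane libraries overlapped, and the combination libraries were the lowest by a wide margin, with an interaction of -2.33 (SE 0.22, adjusted p 1.44e-06 in edgeR).

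Of the 31 genes whose curcumin change was larger with sulforaphane, 18 were below the sum and 13 above it. In 30 of the 31 the combination was called beyond both single treatments. *dod-24* (NCBI Gene 178245, chromosome IV, 12940106 to 12941354), another CUB-like gene and a known target of insulin signalling and of the p38 kinase PMK-1, had 199, 225, 190.3 and 175 CPM in the control libraries, 83.0, 74.9, 71.4 and 69.6 with curcumin, 215, 198, 189 and 194 with sulforaphane and 46.6, 38.2, 40.4 and 28.3 with both. The combination group was separate from and below the curcumin group, with an interaction of -0.98 (SE 0.14, adjusted p 0.000456 in edgeR). *math-41*, a MATH domain gene, and *cyp-32B1*, a cytochrome P450, had the same pattern at lower levels. *math-41* had 12.5 ± 0.848 CPM in untreated worms, 5.99 ± 0.945 under curcumin, 12.78 ± 1.12 under sulforaphane and 3.28 ± 0.309 under both (SD, n = 4) and an interaction of -0.90 (SE 0.18, adjusted p 0.0106 in edgeR). *cyp-32B1* had 34.1 ± 1.498 CPM in untreated worms, 23.1 ± 3.01 under curcumin, 33.8 ± 5.38 under sulforaphane and 12.4 ± 3.16 under both (SD, n = 4) and an interaction of -0.88 (SE 0.19, adjusted p 0.0162 in edgeR). In limma on log2 FPKM with a pseudocount of 1 the *math-41* call was lost at adjusted p 0.0618, in a range over the alternatives of 0.0012 to 0.0618. For *cyp-32B1* it was lost with pseudocounts of 1 and 0.1, at adjusted p 0.0603 and 0.0604, in a range of 3.94e-08 to 0.0604.

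In the other direction, genes that curcumin raised rose further when sulforaphane was added. *cpt-3* (NCBI Gene 190055, chromosome III, 2082819 to 2088314) encodes a carnitine acyltransferase, an enzyme that carries long-chain fatty acids into mitochondria for oxidation. It had 81.4, 77.0, 67.6 and 66.0 CPM in the control libraries, 199, 144, 136 and 112 with curcumin, 66.9, 66.1, 55.8 and 53.8 with sulforaphane and 616, 578, 384 and 449 with both. The sulforaphane libraries overlapped the control at their upper end, whereas the lowest combination library was well above the highest curcumin library. The interaction was 2.05 (SE 0.20, adjusted p 2.03e-06 in edgeR) on the log2 scale and 371 CPM (SE 36.3, limma adjusted p 1.60e-06) on the linear scale, where the sum of the single changes gives 135 CPM.

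The C-type lectin *clec-218* (NCBI Gene 189114, chromosome V, 8307942 to 8310766) had 23.5, 24.4, 32.4 and 33.8 CPM in the control libraries, 70.5, 63.4, 67.7 and 63.5 with curcumin, 19.6, 24.1, 27.2 and 25.0 with sulforaphane and 124, 103, 129 and 111 with both. All curcumin libraries were above the control and all combination libraries above curcumin, with an interaction of 1.06 (SE 0.15, adjusted p 0.000321 in edgeR). *ugt-43* (NCBI Gene 184052, chromosome IV, 10464588 to 10467297), a UDP-glucuronosyltransferase that would attach sugar to small molecules, had 13.7, 12.796, 12.4 and 13.97 CPM in the control libraries, 24.3, 23.5, 25.9 and 22.4 with curcumin, 14.3, 14.9, 12.3 and 12.95 with sulforaphane and 45.2, 42.9, 43.6 and 35.1 with both. Control and sulforaphane did not differ beyond their spread, and the interaction was 0.76 (SE 0.13, adjusted p 0.00263 in edgeR). *gpdh-2* (NCBI Gene 176399, chromosome III, 9854074 to 9859183), a glycerol-3-phosphate dehydrogenase on the route to glycerol, had 251, 205, 201 and 221 CPM in the control libraries, 374, 339.6, 329 and 322 with curcumin, 239, 218.4, 235.4 and 206 with sulforaphane and 544, 497, 520.5 and 468 with both. Its groups fell in the same order, with an interaction of 0.54 (SE 0.11, adjusted p 0.00821 in edgeR).

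Fewer genes fell with each compound alone and then fell by more than the sum. Of the 6 genes that both compounds moved the same way by more than the sum on the log2 scale, 5 fell. Only 1 of the 6 was also called on the linear scale with the same sign. C14C6.5 (NCBI Gene 178574, chromosome V, 536628 to 537418), which the deposited annotation gives a ShK-like and a CC domain, had 237, 289, 249 and 200.5 CPM in the control libraries, 147, 149, 135 and 126 with curcumin, 186, 169, 164 and 165 with sulforaphane and 37.5, 45.5, 29.2 and 30.9 with both. None of the combination libraries reached 50 CPM, while no library of the single treatments was below 100. The interaction was -1.45 (SE 0.15, adjusted p 5.86e-06 in edgeR), and the combination was 0.366 times the product of the single changes. On the linear scale C14C6.5 was not called, at -30.6 CPM (SE 17.3, limma adjusted p 0.62).

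*lys-7* (NCBI Gene 178772, chromosome V, 3481432 to 3482600) encodes an intestinal lysozyme, which acts on bacterial cell walls, and was the most highly expressed of the called genes named here. *lys-7* had 18727, 21043, 18938 and 17551 CPM in the control libraries, 12599.5, 12606, 11996 and 12268 with curcumin, 15786, 16162, 15766 and 15311 with sulforaphane and 6040.4, 7086, 6419 and 6699.7 with both. The 4 groups did not overlap, and the combination was the lowest. Its interaction was -0.64 (SE 0.089, adjusted p 0.000232 in edgeR) on the log2 scale, against -2498 CPM (SE 878, limma adjusted p 0.24) on the linear scale. In limma on log2 FPKM with a pseudocount of 1 the adjusted p was 0.0512, and over all alternatives it ranged from 3.48e-11 to 0.0512.

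A larger group, 21 genes, was moved the same way by both compounds but by less than the sum. Of these, 15 had rising single changes and lay below the sum, and 6 had falling ones and lay above it. On the linear scale 10 of the 21 were also called with the same sign. The extreme case was *spp-12* (NCBI Gene 188762, chromosome V, 13889816 to 13890327), a caenopore gene whose saposin-domain product belongs to a family of pore-forming antibacterial proteins. It had 3.41, 3.07, 2.56 and 3.89 CPM in the control libraries, 262, 316, 232 and 269 with curcumin, 13.4, 20.9, 15.4 and 14.9 with sulforaphane and 455, 486, 448 and 481 with both. All 4 groups were separate from each other. The single changes of 6.38 and 2.32 on the log2 scale multiply to 1348 CPM, above the observed mean of 467 ± 18.7 (SD, n = 4). The log2 interaction was therefore below the sum at -1.53 (SE 0.18, adjusted p 2.74e-05 in edgeR), while the linear interaction was above it at 185 CPM (SE 25.3, limma adjusted p 0.000189). Of the genes called on both scales, *spp-12* alone had opposite signs.

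*hmit-1.1* (NCBI Gene 180205, chromosome V, 18516789 to 18523875), a proton-coupled myo-inositol transporter, had 16.4, 13.3, 14.04 and 16.3 CPM in the control libraries, 62.0, 58.2, 49.7 and 56.0 with curcumin, 52.8, 45.6, 39.2 and 41.2 with sulforaphane and 85.4, 86.7, 68.7 and 80.0 with both. Every treated library was above every control library, and the combination was above both single treatments. Its log2 interaction was -1.07 (SE 0.14, adjusted p 0.000127 in edgeR), whereas on the linear scale the observed level was close to the sum of 86.2 CPM, with an interaction of -5.95 CPM (SE 5.02, limma adjusted p 0.795). Thus *hmit-1.1* departed from multiplication and not detectably from addition.

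The glucuronosyltransferases *ugt-66* and *ugt-37* also rose with both compounds by less than the product. *ugt-66* (NCBI Gene 182814, chromosome III, 6192116 to 6194580) had 62.6, 64.1, 56.6 and 65.2 CPM in the control libraries, 147, 125, 128 and 117 with curcumin, 123, 121, 106 and 107 with sulforaphane and 158, 127, 157 and 151 with both. The combination libraries overlapped those of curcumin, and the interaction was -0.68 (SE 0.11, adjusted p 0.00211 in edgeR). *ugt-37* had 1.76 ± 0.179 CPM in untreated worms, 5.67 ± 1.11 under curcumin, 12.2 ± 1.92 under sulforaphane and 15.6 ± 2.94 under both (SD, n = 4) and an interaction of -1.32 (SE 0.24, adjusted p 0.00458 in edgeR), but it shares exon sequence on the same strand with *ugt-40* and its counts are uncertain. Its call was lost in limma on log2 FPKM with a pseudocount of 1, at adjusted p 0.0823 in a range of 9.22e-07 to 0.0823. On the linear scale *ugt-37* was close to the sum of 16.1 CPM, with an interaction of -0.493 CPM (SE 1.48, limma adjusted p 0.963).

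Enzymes and cuticle genes followed. *asp-14* (NCBI Gene 180917, chromosome X, 6444185 to 6446664), an aspartic protease of the kind used in intestinal digestion, had 108, 102, 97.7 and 83.5 CPM in the control libraries, 145, 138, 118 and 113 with curcumin, 246, 244, 227 and 216 with sulforaphane and 167, 174, 125 and 135 with both. Here the sulforaphane libraries were the highest and the combination libraries stood between them and the control. The interaction was -1.03 (SE 0.14, adjusted p 0.00019 in edgeR). *dhs-19*, a short-chain dehydrogenase, had 82.4 ± 7.35 CPM in untreated worms, 157 ± 7.53 under curcumin, 115 ± 9.86 under sulforaphane and 149 ± 12.4 under both (SD, n = 4) and an interaction of -0.56 (SE 0.11, adjusted p 0.00683 in edgeR). The cuticle collagen *col-80* had 62.8 ± 13.4 CPM in untreated worms, 229 ± 16.9 under curcumin, 151 ± 26.8 under sulforaphane and 252 ± 36.2 under both (SD, n = 4) and an interaction of -1.12 (SE 0.18, adjusted p 0.00156 in edgeR). In both genes the combination libraries overlapped the curcumin libraries.

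The lysozyme gene in this class went the other way. *lys-4* (NCBI Gene 178086, chromosome IV, 11621429 to 11623174) had 152, 136, 133 and 115 CPM in the control libraries, 28.1, 25.0, 24.7 and 27.3 with curcumin, 60.9, 56.7, 67.3 and 63.0 with sulforaphane and 21.1, 17.5, 24.4 and 20.0 with both. Curcumin and sulforaphane both lowered it, and the combination libraries were below all others. The product of the single changes gives 12.2 CPM, so the observed fall was smaller than multiplication and the interaction was 0.77 (SE 0.13, adjusted p 0.00222 in edgeR). The sum of the linear changes gives an impossible -45.6 CPM, and the linear interaction was 66.3 CPM (SE 6.39, limma adjusted p 1.60e-06).

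Of the 142 called genes, the compounds alone moved 30 in opposite directions. The combination was on the curcumin side of the control in 27 of these 30, and in 18 of the 27 it differed from sulforaphane and was not called against curcumin. Among all tested genes with opposite single changes, the curcumin side was also the more frequent where the combination was called against control. That side is thus not particular to the 142 genes. *gale-1* (NCBI Gene 173171, chromosome I, 12970241 to 12978787), the UDP-galactose epimerase of sugar metabolism, had 164, 167, 149.9 and 118 CPM in the control libraries, 42.8, 37.8, 37.7 and 39.9 with curcumin, 189.7, 241, 227 and 211 with sulforaphane and 27.5, 28.2, 34.5 and 29.2 with both. Sulforaphane alone raised it, curcumin lowered it, and the combination libraries were all below the curcumin libraries. The interaction was -0.94 (SE 0.14, adjusted p 0.000385 in edgeR). The locus overlaps exons of *eif-6* on the same strand, which held 13108 counts over all libraries against 27183, so its level is uncertain.

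*clec-5* (NCBI Gene 175652, chromosome III, 4881888 to 4883606), a C-type lectin that curcumin raised, had 132, 132, 144 and 146 CPM in the control libraries, 291, 277, 338 and 317 with curcumin, 87.9, 75.7, 102 and 91.9 with sulforaphane and 325, 348, 362 and 344 with both. Sulforaphane alone lowered it, whereas the combination was not called against curcumin, and their libraries overlapped. The interaction was 0.81 (SE 0.11, adjusted p 0.00019 in edgeR). Y39B6A.1 (NCBI Gene 180264, chromosome V, 19201016 to 19203607), which has no assigned function, had 89.1, 78.2, 98.7 and 97.7 CPM in the control libraries, 58.8, 57.9, 66.0 and 79.6 with curcumin, 121, 130.1, 149 and 161 with sulforaphane and 44.5, 45.9, 47.0 and 55.5 with both. Its combination libraries were all below its curcumin libraries, and the interaction was -1.07 (SE 0.15, adjusted p 0.00019 in edgeR).

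*hsp-4* (NCBI Gene 174203, chromosome II, 7350112 to 7352518) encodes the endoplasmic reticulum chaperone BiP and is the standard reporter of the unfolded protein response there. It had 178, 151, 162 and 155 CPM in the control libraries, 103, 101, 108 and 109 with curcumin, 209.5, 274, 251 and 232 with sulforaphane and 105, 107, 105 and 125 with both. Sulforaphane libraries were the only ones above the control, and combination and curcumin libraries overlapped. The interaction was -0.51 (SE 0.11, adjusted p 0.0168 in edgeR). Among 22 tested genes of that response *hsp-4* was the only one called, 4.55% against 0.991% of all genes, and the median of the list was -0.12 against 0.016.

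A scavenger receptor, a caenopore and a ferritin were further genes of this class. *scav-4*, of the CD36 family that takes up lipids, had 10.8 ± 1.82 CPM in untreated worms, 3.99 ± 0.517 under curcumin, 14.9 ± 1.80 under sulforaphane and 2.27 ± 0.530 under both (SD, n = 4), with an interaction of -1.26 (SE 0.23, adjusted p 0.00409 in edgeR). It overlaps *mff-1* on the other strand, and whether reads were counted by strand is not given in the sources used here. *spp-21* had 0.370 ± 0.147 CPM in untreated worms, 4.59 ± 0.426 under curcumin, 0.0834 ± 0.0387 under sulforaphane and 9.001 ± 2.55 under both (SD, n = 4), with an interaction of 3.04 (SE 0.60, adjusted p 0.00941 in edgeR). Its sulforaphane libraries held 1 to 2 reads each, so the fitted size depends on the prior count and is not a bound. The ferritin gene *ftn-1*, which stores iron, had 314 ± 26.1 CPM in untreated worms, 719.9 ± 91.2 under curcumin, 213 ± 19.5 under sulforaphane and 751 ± 106 under both (SD, n = 4) and an interaction of 0.62 (SE 0.13, adjusted p 0.0174 in edgeR). Without control replicate 2, curcumin replicate 4, sulforaphane replicate 4 or combination replicate 3 the *ftn-1* call was lost, at adjusted p 0.0698, 0.0567, 0.0746 and 0.0508. On log2 FPKM it was 0.0819 and 0.0854, and all alternatives ranged from 6.57e-06 to 0.0854.

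Only 3 genes with opposite single changes ended on the sulforaphane side. *asp-17* (NCBI Gene 180250, chromosome V, 19035723 to 19037322), an aspartic protease, had 61.5, 60.2, 63.4 and 57.5 CPM in the control libraries, 26.7, 25.6, 29.1 and 23.1 with curcumin, 101, 90.1, 100.1 and 84.6 with sulforaphane and 73.2, 80.4, 72.5 and 81.8 with both. The 4 groups did not overlap, and the combination stood above the control although curcumin alone had lowered the gene. The interaction was 0.93 (SE 0.11, adjusted p 2.25e-05 in edgeR). *scl-2*, which encodes a secreted cysteine-rich protein, had 469, 510.2, 444 and 423 CPM in the control libraries, 789, 793, 592 and 674 with curcumin, 285, 299, 315 and 285 with sulforaphane and 296, 306, 299 and 239.7 with both. Curcumin alone raised *scl-2*, and the combination overlapped sulforaphane, with an interaction of -0.68 (SE 0.12, adjusted p 0.00449 in edgeR). *cyp-14A2* had 8.46 ± 0.680 CPM in untreated worms, 12.4 ± 2.24 under curcumin, 2.14 ± 0.233 under sulforaphane and 6.56 ± 0.827 under both (SD, n = 4) and an interaction of 1.07 (SE 0.21, adjusted p 0.00983 in edgeR). That call was lost in limma on log2 FPKM with a pseudocount of 1, at adjusted p 0.0929 in a range of 0.00197 to 0.0929.

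In 11 genes only curcumin was called alone and its change was smaller or turned when sulforaphane was added. *lipl-1* (NCBI Gene 179771, chromosome V, 12919986 to 12921692), a second lysosomal-type lipase gene of the *lipl-5* family, had 109.7, 146, 146 and 131 CPM in the control libraries, 220.1, 225, 215 and 218.1 with curcumin, 117, 133, 129 and 124 with sulforaphane and 110.5, 128, 108 and 94.6 with both. All curcumin libraries were above 200 CPM and all other libraries below 150. The interaction was -0.91 (SE 0.12, adjusted p 0.000129 in edgeR), and the combination was called slightly below the control at a log2 change of -0.27 (edgeR adjusted p 0.0227). Both lipase genes were thus below the sum, *lipl-5* with a deeper fall and *lipl-1* without the rise seen under curcumin.

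*hacd-1* (NCBI Gene 178638, chromosome V, 1460369 to 1461613), a hydroxyacyl-CoA dehydrogenase of fatty acid oxidation, had 198, 181, 158 and 159.9 CPM in the control libraries, 300.5, 322, 259.8 and 290.3 with curcumin, 218.5, 233, 206 and 192 with sulforaphane and 162, 213, 196 and 208.9 with both. Curcumin libraries were again the highest, and the combination overlapped both control and sulforaphane. The interaction was -0.87 (SE 0.13, adjusted p 0.000331 in edgeR). *fmo-5*, a flavin-containing monooxygenase, had 19.5 ± 1.34 CPM in untreated worms, 37.4 ± 1.33 under curcumin, 20.7 ± 3.71 under sulforaphane and 23.2 ± 1.18 under both (SD, n = 4), again highest with curcumin, with an interaction of -0.77 (SE 0.14, adjusted p 0.0034 in edgeR).

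The other genes named here, whose curcumin change was smaller or turned with sulforaphane, fell with curcumin alone. *spp-2* (NCBI Gene 259714, chromosome X, 7315995 to 7316818), a caenopore gene, had 170.0, 175, 152 and 124 CPM in the control libraries, 31.7, 30.4, 28.3 and 29.3 with curcumin, 157, 152, 154 and 145 with sulforaphane and 54.8, 48.7, 50.04 and 42.2 with both. The combination libraries lay between the curcumin libraries and the rest without overlap, and the interaction was 0.74 (SE 0.13, adjusted p 0.00249 in edgeR). The C-type lectin *clec-86* had 14.5 ± 0.670 CPM in untreated worms, 5.63 ± 0.609 under curcumin, 14.3 ± 2.44 under sulforaphane and 11.2 ± 2.17 under both (SD, n = 4) and an interaction of 0.998 (SE 0.20, adjusted p 0.00892 in edgeR), but its exons overlap *alh-10*, which held more reads, 19221 against 2842. T03F7.7, a CRAL-TRIO domain gene, had 19.1 ± 1.69 CPM in untreated worms, 9.94 ± 0.761 under curcumin, 23.0 ± 0.890 under sulforaphane and 19.9 ± 2.54 under both (SD, n = 4) and an interaction of 0.73 (SE 0.14, adjusted p 0.00652 in edgeR). In *clec-86* and T03F7.7 the combination was called above curcumin alone and not against sulforaphane. *xdh-1*, the xanthine dehydrogenase of purine breakdown, had 19.1 ± 1.68 CPM in untreated worms, 13.9 ± 0.975 under curcumin, 19.4 ± 1.38 under sulforaphane and 23.0 ± 1.77 under both (SD, n = 4) and an interaction of 0.70 (SE 0.13, adjusted p 0.00499 in edgeR). On log2 FPKM the *xdh-1* call was lost in limma at adjusted p 0.0618 and 0.0641, in a range of 0.000346 to 0.0641. The direction of *xdh-1* turned, since the combination was called above the control at a log2 change of 0.27 (edgeR adjusted p 0.0348).

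A sulforaphane change was smaller or turned with curcumin in 9 genes. *clec-61* (NCBI Gene 174613, chromosome II, 10488730 to 10490537), a C-type lectin, had 13.7, 21.2, 17.4 and 12.63 CPM in the control libraries, 17.5, 14.8, 17.2 and 15.3 with curcumin, 5.45, 4.22, 4.75 and 3.27 with sulforaphane and 15.2, 18.6, 13.4 and 13.7 with both. The sulforaphane libraries stood alone below 6 CPM, and the other 3 groups overlapped. The log2 change of *clec-61* with curcumin alone was 0.0023 (adjusted p 0.996 in edgeR), and the interaction was 1.78 (SE 0.22, adjusted p 5.92e-05 in edgeR). *sodh-1*, an alcohol dehydrogenase, had 31.6 ± 8.35 CPM in untreated worms, 42.4 ± 10.1 under curcumin, 4.83 ± 0.502 under sulforaphane and 16.6 ± 3.39 under both (SD, n = 4) and an interaction of 1.35 (SE 0.27, adjusted p 0.00941 in edgeR). In *sodh-1* the combination stood between the single treatments and differed from both. Its call was lost in limma on log2 FPKM with a pseudocount of 1, at adjusted p 0.065 in a range of 9.43e-14 to 0.065. On the linear scale the combination was close to the sum of 15.6 CPM, with an interaction of 1.04 CPM (SE 4.43, limma adjusted p 0.977).

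*dlhd-1* (NCBI Gene 188808, chromosome II, 1169535 to 1172130), a dienelactone hydrolase domain gene, had 29.6, 39.0, 47.5 and 43.4 CPM in the control libraries, 56.7, 46.6, 40.8 and 51.0 with curcumin, 13.5, 19.7, 23.3 and 21.1 with sulforaphane and 49.0, 50.4, 51.1 and 46.9 with both. Again only the sulforaphane libraries were set apart, at the low end, with an interaction of 1.05 (SE 0.19, adjusted p 0.00338 in edgeR). C23H5.8 (NCBI Gene 177007, chromosome IV, 2111890 to 2113412), without an assigned function, went the other way and had 71.1, 66.4, 60.6 and 52.5 CPM in the control libraries, 57.4, 59.3, 47.3 and 48.9 with curcumin, 83.4, 91.1, 81.5 and 74.7 with sulforaphane and 38.8, 43.3, 43.9 and 41.9 with both. It rose with sulforaphane, and with both compounds it was below every other library, with an interaction of -0.74 (SE 0.13, adjusted p 0.00247 in edgeR). C10C5.4, an aminoacylase-like gene, had 32.0 ± 1.34 CPM in untreated worms, 28.4 ± 1.37 under curcumin, 23.5 ± 0.712 under sulforaphane and 29.9 ± 3.21 under both (SD, n = 4) and an interaction of 0.52 (SE 0.11, adjusted p 0.0159 in edgeR). Without curcumin replicate 4, sulforaphane replicate 4 or combination replicate 3 the C10C5.4 call was lost, at adjusted p 0.0513, 0.0589 and 0.0592 in a range of 0.00374 to 0.0592.

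The lectin *clec-4* and the CUB-like pseudogene F55G11.3 turned at low levels. *clec-4* had 4.11, 4.07, 3.43 and 2.36 CPM in the control libraries, 2.88, 3.25, 2.85 and 2.41 with curcumin, 7.57, 5.45, 4.95 and 5.09 with sulforaphane and 0.686, 1.303, 0.948 and 0.545 with both. Its combination libraries held 9 to 19 reads each and were the lowest, and its interaction was -2.44 (SE 0.34, adjusted p 0.000265 in edgeR). F55G11.3 (NCBI Gene 13198758, chromosome IV, 12970270 to 12971974) had 1.07, 3.53, 3.68 and 2.17 CPM in the control libraries, 2.07, 2.24, 1.08 and 1.09 with curcumin, 4.46, 8.57, 5.78 and 4.90 with sulforaphane and 0.125, 0.0686, 0.0677 and 0 with both. The combination libraries held 0 to 2 reads each, against 63 to 132 with sulforaphane. The interaction of F55G11.3 was -5.67 (SE 0.70, adjusted p 4.94e-05 in edgeR), the largest in size of all 142, and its size depends on the prior count.

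Of the 32 genes called against control with the combination alone, 14 were above the sum and 18 below it. *fat-2* (NCBI Gene 178293, chromosome IV, 13323873 to 13326395) encodes the desaturase that makes linoleic acid from oleic acid and was among the most abundant transcripts. *fat-2* had 6421, 6179.9, 5774 and 5625 CPM in the control libraries, 7408, 6708, 6021 and 6023 with curcumin, 6651, 6361, 6064 and 5796 with sulforaphane and 4872, 5314, 4697 and 4694 with both. The 4 combination libraries were the lowest, and the other groups overlapped. Its interaction was -0.47 (SE 0.10, adjusted p 0.0177 in edgeR), with a linear interaction of -1864 CPM (SE 421, limma adjusted p 0.0197). In limma on log2 FPKM the *fat-2* call was lost at adjusted p 0.113 and 0.116, the upper end of the range over the alternatives of 8.82e-05 to 0.116.

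*asp-3* (NCBI Gene 180947, chromosome X, 6791064 to 6792709), an aspartic protease of the cathepsin D type, had 2241, 2156, 1975 and 1787 CPM in the control libraries, 2553, 2451, 2043 and 2171 with curcumin, 2309, 2401, 2229.9 and 2001 with sulforaphane and 1766, 1867, 1511 and 1486 with both. One combination library exceeded the lowest control library, and the combination group was otherwise the lowest. Its interaction was -0.61 (SE 0.12, adjusted p 0.0109 in edgeR). Y105C5B.15 (NCBI Gene 178448, chromosome IV, 15951936 to 15954836), annotated as a purple acid phosphatase, had 495, 544, 504 and 398 CPM in the control libraries, 558, 571, 508 and 477 with curcumin, 483, 523, 474 and 445 with sulforaphane and 312, 354, 316 and 310.1 with both. No combination library reached the lowest library of another group, and the interaction was -0.70 (SE 0.12, adjusted p 0.00192 in edgeR). *ncx-9*, a mitochondrial sodium and calcium exchanger, had 11.5 ± 2.63 CPM in untreated worms, 9.21 ± 1.38 under curcumin, 10.1 ± 1.43 under sulforaphane and 2.84 ± 0.834 under both (SD, n = 4) and an interaction of -1.51 (SE 0.26, adjusted p 0.00244 in edgeR). Y105C5A.13, without an assigned function, had 19.2 ± 2.64 CPM in untreated worms, 14.9 ± 2.80 under curcumin, 15.9 ± 2.17 under sulforaphane and 4.90 ± 1.29 under both (SD, n = 4) and an interaction of -1.32 (SE 0.22, adjusted p 0.00199 in edgeR).

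A pair of C-type lectins was also called lower with the combination alone, although the fall of *clec-85* with curcumin missed the threshold narrowly. Its log2 change there was -0.35 (adjusted p 0.0555 in edgeR). *clec-85*, a reporter gene of the PMK-1 pathway, had 449.9, 442, 368 and 344 CPM in the control libraries, 355, 346, 259.6 and 294 with curcumin, 503, 460.2, 405 and 365 with sulforaphane and 190.3, 227, 141 and 185 with both. The combination libraries were all lower than those of the other groups, with an interaction of -0.87 (SE 0.17, adjusted p 0.0102 in edgeR). *clec-209* had 27.2, 9.46, 15.9 and 1.91 CPM in the control libraries, 17.3, 22.2, 4.76 and 25.2 with curcumin, 48.5, 5.26, 48.2 and 34.9 with sulforaphane and 0.749, 5.14, 1.15 and 0.666 with both. Its replicates spread over more than 10-fold within the control group, and the highest combination library exceeded the lowest control and curcumin libraries. The interaction of *clec-209* was -4.53 (SE 0.92, adjusted p 0.0106 in edgeR), and in limma on log2 FPKM it was not called at adjusted p 0.085 and 0.0742, in a range of 2.30e-127 to 0.085 whose lower end came from edgeR without the count filter.

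On the rising side of this class, M02D8.6 (NCBI Gene 259718, chromosome X, 8731310 to 8731922), without an assigned function, had 46.0, 44.7, 47.0 and 50.3 CPM in the control libraries, 41.9, 41.6, 37.7 and 45.8 with curcumin, 40.0, 42.1, 44.7 and 42.1 with sulforaphane and 60.95, 55.6, 82.7 and 61.1 with both. The combination libraries were above those of the other groups, and the interaction was 0.79 (SE 0.13, adjusted p 0.00205 in edgeR). Outside the naming rule, and chosen after their values were seen, *ech-1.2* and *odc-1* were the called genes of this class with known central roles. *ech-1.2*, the alpha subunit of the mitochondrial trifunctional enzyme of fatty acid oxidation, had 486 ± 21.2 CPM in untreated worms, 526 ± 23.8 under curcumin, 493 ± 25.3 under sulforaphane and 694 ± 37.5 under both (SD, n = 4) and an interaction of 0.38 (SE 0.085, adjusted p 0.023 in edgeR). *odc-1*, the ornithine decarboxylase that starts polyamine synthesis, had 103 ± 6.28 CPM in untreated worms, 97.2 ± 7.33 under curcumin, 100.5 ± 10.2 under sulforaphane and 135 ± 9.002 under both (SD, n = 4) and an interaction of 0.51 (SE 0.11, adjusted p 0.0131 in edgeR).

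**Figure D3:**
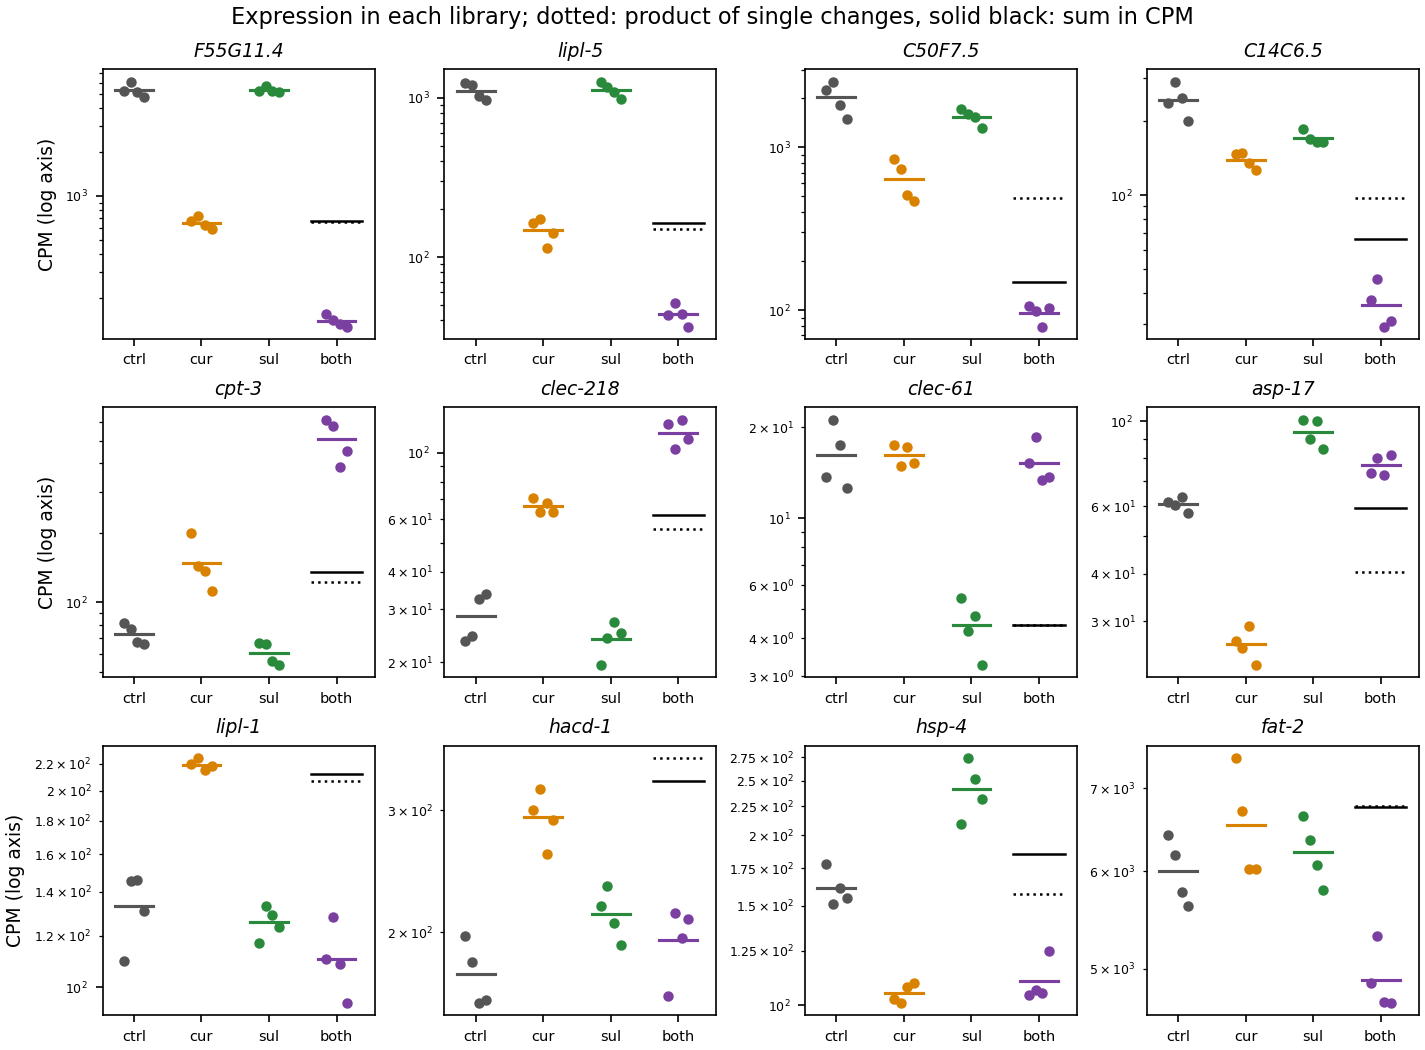
CPM in each of the 16 libraries (points, log axis, group means as coloured bars) for 12 genes in the control (ctrl), curcumin (cur), sulforaphane (sul) and combination (both) groups, with the combination level given by the product of the single changes (dotted) and by their sum in CPM (solid black). In F55G11.4, *lipl-5*, C50F7.5 and C14C6.5 all 4 combination libraries lie below both lines, in *cpt-3*, *clec-218*, *clec-61* and *asp-17* above both, and in *lipl-1*, *hacd-1*, *hsp-4* and *fat-2* below both.

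On the linear scale, 204 genes (1.42% of those tested) were called in limma, 87 above the sum (0.607%) and 117 below it (0.817%). At an unadjusted p under 0.05 there were 1375. Of the 204, 92 were also called on the log2 scale with the same sign, 42 above and 50 below the sum. The scales ask different questions, and what part this had in the difference between the sets was not tested. A gene whose single changes multiply is above the linear sum when both compounds move it the same way, and below it when they move it in opposite ways. The 49 genes called on the log2 scale alone included F55G11.4, *lipl-5* and C50F7.5, whose shortfall from the sum in CPM was smaller than the SD of the control group. F55G11.4, for example, had a linear interaction of -536 CPM (SE 287, limma adjusted p 0.587). The count below the sum depended on sulforaphane replicate 2, without which it was 74.

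**Figure D4:**
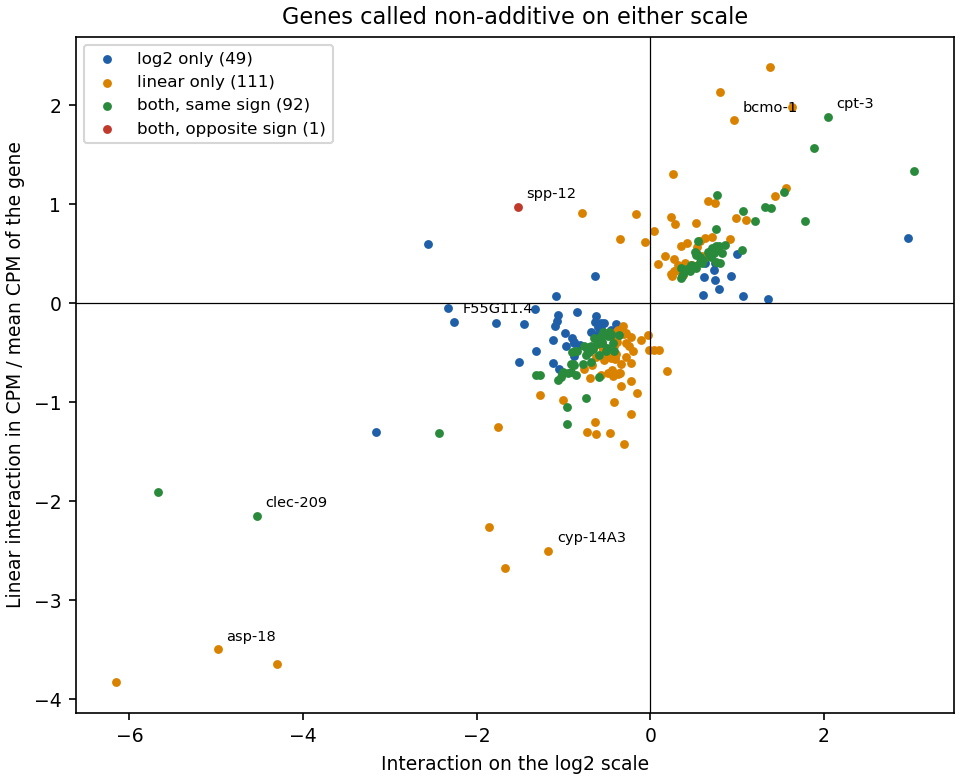
Interaction on the log2 scale (x axis) against the linear interaction divided by the mean CPM of the gene (y axis) for the 253 genes called on either scale, coloured by where they were called. The 92 green genes were called on both scales with the same sign, the 49 blue genes on the log2 scale alone and the 111 orange genes on the linear scale alone, and *spp-12* (red) was called with opposite signs.

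Of the 111 genes called on the linear scale alone, those that both compounds moved lay on the side of the linear sum that multiplying changes would give. Among them, 49 had opposite single changes and all 49 were below the sum, while 13 rose with both compounds, 9 fell with both, and all 22 were above it. In 37 of the 49, curcumin lowered the gene and sulforaphane raised it, and in 12 the reverse held. Of the remainder, 21 were called for curcumin alone (10 above and 11 below the sum), 10 for sulforaphane alone (3 above and 7 below) and 9 for neither (all above). The uncalled log2 interaction had the same sign in most of the 111, with 40 above and 64 below the sum on both scales. It was positive in 3 genes below the linear sum and negative in 4 above it. The genes with opposite changes named here, by size, were all among the 12 that curcumin raised. *cyp-14A3* (NCBI Gene 187185, chromosome X, 13271837 to 13274202), a cytochrome P450, had 34.2, 46.3, 31.5 and 55.6 CPM in the control libraries, 214, 221, 195 and 188 with curcumin, 1.41, 3.25, 2.51 and 3.46 with sulforaphane and 4.30, 6.03, 8.19 and 4.90 with both. Every combination library was below every control library, although curcumin alone had raised the gene in all 4 libraries. Its linear interaction was -159 CPM (SE 14.3, limma adjusted p 8.53e-07), and its log2 interaction was not called at -1.17 (SE 0.31, adjusted p 0.071 in edgeR).

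Secreted cysteine-rich protein genes and a protease were also highest with curcumin. *scl-11* had 3.92, 4.93, 4.43 and 4.08 CPM in the control libraries, 61.3, 39.5, 24.5 and 17.9 with curcumin, 1.27, 0.909, 1.86 and 0.566 with sulforaphane and 2.37, 2.19, 3.18 and 4.12 with both. Here each curcumin library was above every other library, over a wide range, and the linear interaction was -29.6 CPM (SE 4.27, limma adjusted p 0.000279). *asp-18* and *scl-19*, adjacent on chromosome V, were near 0 in most sulforaphane and combination libraries. *asp-18*, whose fall with sulforaphane alone was not called (adjusted p 0.0819 in edgeR), had 0.822, 3.07, 0.499 and 7.33 CPM in the control libraries, 56.3, 47.2, 41.8 and 44.2 with curcumin, 0, 0, 0.0642 and 2.14 with sulforaphane and 0, 0.0686, 0.0677 and 0.969 with both. *scl-19* had 0.316, 0.666, 0.374 and 2.23 CPM in the control libraries, 25.6, 22.8, 16.4 and 24.0 with curcumin, 0, 0, 0 and 0.440 with sulforaphane and 0, 0.0686, 0 and 0.484 with both. In both genes replicate 4 was the highest library of the control, sulforaphane and combination groups. Their linear interactions were -44.7 CPM (SE 8.75, limma adjusted p 0.0062) for *asp-18* and -21.3 CPM (SE 3.20, limma adjusted p 0.000437) for *scl-19*.

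At the other end were genes above the linear sum. T16G1.7 (NCBI Gene 179774, chromosome V, 12932941 to 12935112), annotated with a CHK domain, had 3.29, 2.60, 4.49 and 6.44 CPM in the control libraries, 35.6, 21.5, 21.7 and 20.2 with curcumin, 10.54, 8.70, 7.19 and 8.36 with sulforaphane and 86.2, 58.9, 52.1 and 49.0 with both. All treated libraries were above all control libraries, and the combination was close to the product of 51.2 CPM and far from the sum of 29.2. Its linear interaction was 32.3 CPM (SE 6.18, limma adjusted p 0.00526) and its log2 interaction 0.27 (SE 0.32, adjusted p 0.894 in edgeR). *ugt-16*, raised by curcumin and not called for sulforaphane alone, had 4.53 ± 0.965 CPM in untreated worms, 8.89 ± 2.01 under curcumin, 6.48 ± 1.104 under sulforaphane and 21.3 ± 3.19 under both (SD, n = 4) and a linear interaction of 10.4 CPM (SE 1.83, limma adjusted p 0.00191). *bcmo-1* (NCBI Gene 189959, chromosome II, 12830676 to 12832717), related to the enzymes that cleave carotenoids, had 17.6, 15.7, 16.0 and 16.3 CPM in the control libraries, 5.11, 4.27, 3.42 and 5.17 with curcumin, 2.19, 0.844, 2.95 and 1.70 with sulforaphane and 1.12, 1.37, 0.406 and 1.21 with both. Each compound alone removed most of its transcript, so the sum of the changes gives -9.97 CPM, below 0, and the linear interaction was 10.997 CPM (SE 1.57, limma adjusted p 0.000249). *lips-11*, a lipase-related gene, had 22.5 ± 4.54 CPM in untreated worms, 6.87 ± 1.98 under curcumin, 8.22 ± 1.91 under sulforaphane and 1.48 ± 0.348 under both (SD, n = 4) and a linear interaction of 8.88 CPM (SE 2.12, limma adjusted p 0.0288). Its sum of changes was -7.40 CPM, so for this gene, as for *bcmo-1*, any level lies above the sum. On the log2 scale *lips-11* was below the sum and not called, at -0.78 (SE 0.31, adjusted p 0.394 in edgeR). Its linear call was lost without control replicate 1, 2 or 3, curcumin replicate 2 or sulforaphane replicate 1, 2 or 3, at adjusted p from 0.0507 to 0.165 in limma, in a range of 0.00222 to 0.165.

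Functional lists, chosen with earlier results of these data known, held 60 of the 142 called genes, 42.3%, and 1692 of the tested genes, 11.8%. The lists are described by counts and medians only. By number, C-type lectins led, with 15 of 118 tested members called, 12.7% against 0.991% of all genes, although some smaller lists had a higher share. They went both ways, 7 above the sum and 8 below it, with a median interaction of -0.00032 over the family. Above the sum were *clec-5*, *clec-48*, *clec-61*, *clec-86*, *clec-166*, *clec-167* and *clec-218*, and below it *clec-4*, *clec-41*, *clec-56*, *clec-65*, *clec-66*, *clec-85*, *clec-186* and *clec-209*. Reads shared between near-identical paralogs of this family were not tested for.

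The called CUB-like genes were all on one side. Of 48 tested members, 6 were called on the log2 scale (12.5%), all below the sum. Over the family, 33 of the 48 interactions were negative, called or not, and the median was -0.22 against 0.016 over all genes. On the linear scale 15 were called, against 1.42% of all genes, and were below the sum. Of these 15, 11 were called on the linear scale alone, where opposite single changes that multiply lie below the sum by arithmetic, so this direction is no further support. The called members were F55G11.4, *dod-24*, C32H11.4, F55G11.2, F20G2.5 and the pseudogene F55G11.3. With curcumin 36 of the 48 fell and 3 rose, against 7.71% lower and 6.87% higher among all tested genes. With sulforaphane 25 rose and 1 fell, against 4.33% higher and 2.37% lower. With both 37 fell and 4 rose, against 11% lower and 12.1% higher. Their median log2 change was -1.18 for curcumin, 0.40 for sulforaphane and -1.20 for the combination. F20G2.5, which sulforaphane alone raised, had 45.4 ± 7.602 CPM in untreated worms, 5.85 ± 1.46 under curcumin, 81.1 ± 5.68 under sulforaphane and 5.45 ± 1.21 under both (SD, n = 4), with an interaction of -0.96 (SE 0.21, adjusted p 0.021 in edgeR). F55G11.2 had 14.9 ± 1.65 CPM in untreated worms, 2.76 ± 0.367 under curcumin, 30.7 ± 3.07 under sulforaphane and 2.92 ± 0.544 under both (SD, n = 4), with an interaction of -0.96 (SE 0.20, adjusted p 0.0131 in edgeR). In both genes the combination libraries overlapped those of curcumin alone and lay below all sulforaphane libraries. The sum of the 4 intestinal markers given above was also lower with curcumin and with both and higher with sulforaphane. Of the 4, *act-5* alone was called higher with sulforaphane, from 311 ± 34.7 to 464 ± 56.9 CPM (SD, n = 4, adjusted p 0.000154 in edgeR). For *ges-1*, *elt-2* and *ifb-2* that log2 change was 0.072, 0.067 and -0.045 and was not called. With both compounds all 4 markers fell, and with curcumin alone all but *elt-2* did. Their part in the result on the CUB-like genes was not tested.

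**Figure D5:**
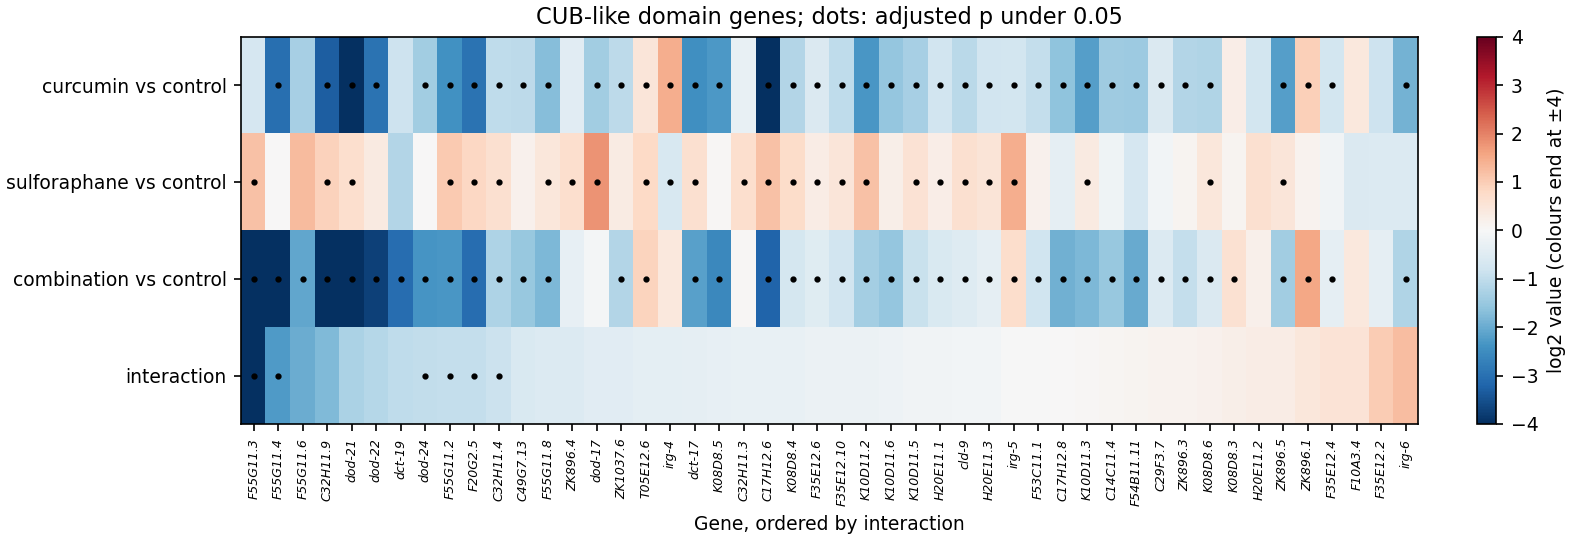
Log2 change against control with each treatment and the interaction (upper to lower strips) for 48 CUB-like genes (x axis, ordered by interaction), coloured from blue (lower) to red (higher) and ending at 4 in size, with a dot where the adjusted p was under 0.05. Blue prevails with curcumin (36 falls) and with both (37 falls), red with sulforaphane (25 rises), and the 6 dots in the interaction strip are all on its blue side.

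Other genes of immunity were called singly. Of 16 genes of the PMK-1 pathway and its reporters, 2 were called (12.5%), *dod-24* and *clec-85*, both below the sum. Of 12 lysozymes, *lys-7* was below and *lys-4* above (16.7%), and of 20 caenopores *spp-2* and *spp-21* were above and *spp-12* below (15%). Among 28 epidermal antimicrobial peptide genes, 1 was called on the log2 scale (3.57%) and 4 on the linear scale, against 1.42% of all genes, each above the sum. Their median interaction was 0.28, and their median log2 change was 0.46 for curcumin, 0.041 for sulforaphane and 0.92 for the combination. With the combination 16 of the 28 rose and none fell, with 12.1% of all genes higher. There were 6 rises for curcumin and 5 for sulforaphane, with 6.87% and 4.33% of all genes higher. *fipr-2*, one of these peptide genes called on the linear scale alone, had 7.41 ± 2.46 CPM in untreated worms, 10.46 ± 1.70 under curcumin, 5.76 ± 1.25 under sulforaphane and 17.5 ± 3.48 under both (SD, n = 4), with a linear interaction of 8.66 CPM (SE 2.03, limma adjusted p 0.0253). Of 12 target genes of the insulin-regulated factor DAF-16, *ftn-1* was above and *lys-7* below the sum (16.7%).

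Lipid genes included both directions within one pathway. Of 61 genes of fatty acid activation and beta-oxidation, 6 were called (9.84%). The carnitine acyltransferases *cpt-3* and *cpt-5* and the trifunctional enzyme gene *ech-1.2* were above the sum, and *hacd-1*, *ech-7* and the acyl-CoA oxidase *acox-1.5* were below it. *cpt-5* had 101 ± 1.18 CPM in untreated worms, 170.0 ± 26.1 under curcumin, 91.8 ± 9.46 under sulforaphane and 229 ± 30.7 under both (SD, n = 4) and an interaction of 0.57 (SE 0.14, adjusted p 0.0418 in edgeR). *acox-1.5*, which belongs to the peroxisomal oxidases, had 149 ± 23.3 CPM in untreated worms, 71.5 ± 18.8 under curcumin, 203 ± 27.7 under sulforaphane and 47.1 ± 15.1 under both (SD, n = 4) and an interaction of -1.05 (SE 0.25, adjusted p 0.0375 in edgeR). *ech-7*, an enoyl-CoA hydratase, had 42.0 ± 7.29 CPM in untreated worms, 46.9 ± 6.14 under curcumin, 54.6 ± 6.85 under sulforaphane and 37.4 ± 1.25 under both (SD, n = 4) and an interaction of -0.70 (SE 0.15, adjusted p 0.0195 in edgeR). Without sulforaphane replicate 1 the adjusted p of *ech-7* was 0.0535, and its range over the alternatives was 2.66e-07 to 0.0553. Both called members of the 16 desaturases and elongases, *fat-2* and *elo-2*, were below the sum (12.5%). So were both called members of the 24 lipases and lipid-binding proteins, *lipl-1* and *lipl-5* (8.33%). Over the whole lists, called or not, 11 of the 16 and 6 of the 24 interactions were negative. The medians were -0.21 and 0.13, against 0.016 over all genes, so the lipase list as a whole did not lean below the sum.

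Detoxification families are given by the number of members called. With 0.991% of all genes called, a list of 45 or 13 genes can hold none without differing from the rest. None of 45 glutathione S-transferases was called in edgeR or in DESeq2, while *gst-35* was called above the sum on the linear scale. In edgeR 5 had an unadjusted p under 0.05, against 1296 of all 14328 genes. Of the 45, 17 rose and 2 fell with sulforaphane, 9 and 6 with curcumin, and 20 and 3 with both. Among all tested genes 4.33%, 6.87% and 12.1% rose and 2.37%, 7.71% and 11% fell, in that order. Likewise none of 13 SKN-1 target genes was called by either tool, with 3 at an unadjusted p under 0.05, 8 risen with sulforaphane, 3 with curcumin and 10 with both. The SKN-1 targets had median log2 changes of 0.12 for curcumin, 0.52 for sulforaphane and 0.96 for the combination. The median of their interactions was -0.042, against 0.016 over all genes, and 8 of the 13 interactions were negative. Of 62 glucuronosyltransferases 4 were called (6.45%), *ugt-43* above and *ugt-37*, *ugt-46* and *ugt-66* below the sum. Of 64 cytochrome P450 genes 4 were called (6.25%), *cyp-14A2* above and *cyp-32B1*, *cyp-35C1* and *cyp-37A1* below. Also without a call in edgeR or DESeq2 were 80 cytosolic ribosomal protein genes, of which 4 had an unadjusted p under 0.05, 33 proteasome subunits with 3, 41 genes of the respiratory chain and ATP synthase with 1, and 34 sarcomere genes with 2. The 11 heat shock genes and 9 genes of the mitochondrial unfolded protein response had none at that level either. A list with no call is not shown to be additive, since the smallest interaction called among all genes was 0.35.

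Structural and digestive genes completed the lists. Of 66 cuticle collagens, *col-80* and *col-140* were called below the sum (3.03%). *col-140* had 111 ± 23.9 CPM in untreated worms, 194 ± 29.1 under curcumin, 167 ± 6.396 under sulforaphane and 175 ± 18.9 under both (SD, n = 4) and an interaction of -0.73 (SE 0.16, adjusted p 0.0195 in edgeR). Without sulforaphane replicate 3 its adjusted p was 0.0535, and its range over the alternatives was 1.98e-10 to 0.0535. Of 51 digestive proteases, *asp-17* was above and *asp-3* and *asp-14* below the sum (5.88%). In the 12 trehalose, glycogen and osmotic genes, *gpdh-2* was above and *hmit-1.1* below (16.7%). The other osmotic dehydrogenase, *gpdh-1*, was called on the linear scale alone, with 12.1 ± 2.43 CPM in untreated worms, 21.9 ± 5.72 under curcumin, 19.1 ± 1.49 under sulforaphane and 49.6 ± 7.62 under both (SD, n = 4) and a linear interaction of 20.8 CPM (SE 4.10, limma adjusted p 0.00667).

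By position, chromosome V held 50 of the 142, 35.2%, and 20.3% of the tested genes, and chromosome IV held 33, 23.2%, and 16.7% of the tested genes. In 13 places, 28 called genes in all, called genes lay within 20 kb of each other. The same count was not made for other tested genes, so clustering was not tested. One run was F55G11.2, F55G11.3 and F55G11.4, 3 CUB-like loci from 12967445 to 12975603 on chromosome IV, where all 3 tested genes of the span were below the sum. C32H11.4 and *dod-24* lay close by, from 12921264 to 12941354, and were 2 of the 5 tested genes of that span. Neighbouring lectins were called on the same side as well, *clec-65* and *clec-66* on chromosome II below the sum and *clec-166* and *clec-167* on chromosome IV above it. Other runs were mixed. The run of *cpt-5*, *spp-12* and *cyp-35C1* on chromosome V had 1 gene above and 2 below, among 8 tested genes of the span. F53A9.8 and M02D8.6 on chromosome X had 1 on each side, among 5 tested genes. *clec-167* had only 0 to 2 reads per curcumin library and an edgeR adjusted p of 0.0494. Of the 142 genes, 18 share exon sequence with another gene and are uncertain.

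Several named genes were close to the threshold and depended on single libraries. *elo-2*, a fatty acid elongase, had 139 ± 2.82 CPM in untreated worms, 212 ± 8.99 under curcumin, 185 ± 21.2 under sulforaphane and 204 ± 25.5 under both (SD, n = 4) and an interaction of -0.47 (SE 0.11, adjusted p 0.0449 in edgeR). Its call was lost, at adjusted p from 0.0595 to 0.126 (all alternatives 0.000193 to 0.126), without control replicate 1 or 4, curcumin replicate 2, 3 or 4, sulforaphane replicate 1, 2 or 3, or combination replicate 1 or 2. *nhr-11*, a nuclear hormone receptor, had 42.1 ± 5.71 CPM in untreated worms, 65.5 ± 4.92 under curcumin, 43.4 ± 3.76 under sulforaphane and 96.9 ± 4.22 under both (SD, n = 4) and an interaction of 0.53 (SE 0.12, adjusted p 0.0284 in edgeR). It was lost, at adjusted p from 0.059 to 0.122 (all alternatives 0.00302 to 0.122), without control replicate 1, 2 or 4, curcumin replicate 2 or 4, sulforaphane replicate 2 or 4, or combination replicate 1, 3 or 4. *pmp-4*, a peroxisomal ABC transporter, had 58.7 ± 5.23 CPM in untreated worms, 98.3 ± 18.5 under curcumin, 44.9 ± 4.92 under sulforaphane and 116 ± 11.6 under both (SD, n = 4) and an interaction of 0.63 (SE 0.15, adjusted p 0.0356 in edgeR). This call went, at adjusted p from 0.0517 to 0.124 (all alternatives 5.47e-05 to 0.124), without control replicate 1, 3 or 4, curcumin replicate 2, 3 or 4, sulforaphane replicate 3 or 4, or combination replicate 1 or 3. All 3 genes kept their direction in every alternative that tested them.

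The transthyretin-related *ttr-23* had 37.2 ± 5.72 CPM in untreated worms, 29.01 ± 3.33 under curcumin, 36.2 ± 3.04 under sulforaphane and 18.3 ± 2.001 under both (SD, n = 4) and an interaction of -0.62 (SE 0.15, adjusted p 0.0429 in edgeR). It was lost, at adjusted p from 0.0573 to 0.117 (all alternatives 0.000145 to 0.117), without control replicate 3 or 4, curcumin replicate 1, 2 or 3, sulforaphane replicate 1, 2 or 3, or combination replicate 2 or 4. *cyp-35C1*, a cytochrome P450 with opposite single changes, had 40.6 ± 4.58 CPM in untreated worms, 101 ± 10.98 under curcumin, 29.7 ± 4.30 under sulforaphane and 49.0 ± 3.56 under both (SD, n = 4) and an interaction of -0.59 (SE 0.14, adjusted p 0.0342 in edgeR). Without control replicate 3 or 4, curcumin replicate 2, sulforaphane replicate 1 or 2, or combination replicate 2 or 4 its adjusted p was 0.0541 to 0.101, in a range of 2.11e-05 to 0.101. F14H12.3, a thrombospondin-repeat gene lowered by both compounds by more than the sum, had 134 ± 11.6 CPM in untreated worms, 111 ± 13.2 under curcumin, 103 ± 3.25 under sulforaphane and 58.3 ± 6.48 under both (SD, n = 4) and an interaction of -0.54 (SE 0.12, adjusted p 0.0261 in edgeR). Without curcumin replicate 2 or sulforaphane replicate 1 or 3 its adjusted p was 0.0573, 0.0508 and 0.0568, and with library size alone it was 0.0508, in a range of 2.47e-05 to 0.0573. On the linear scale F14H12.3 was not called, at -20.5 CPM (SE 8.68, limma adjusted p 0.404).

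Of 3 further genes, each stood out in its class. Y105C5B.3, annotated as a purple acid phosphatase, alone had a sulforaphane change that was larger with curcumin, with 13.5 ± 1.64 CPM in untreated worms, 9.99 ± 0.995 under curcumin, 8.37 ± 2.18 under sulforaphane and 2.87 ± 0.902 under both (SD, n = 4) and an interaction of -1.0998 (SE 0.26, adjusted p 0.0375 in edgeR). It was lost, at adjusted p from 0.0528 to 0.116 (all alternatives 3.18e-05 to 0.132), without control replicate 1, 2 or 3, curcumin replicate 1 or 2, sulforaphane replicate 3 or 4, or combination replicate 1 or 2. *mod-5*, the serotonin reuptake transporter, was the gene with none of the 3 changes from control called, with 5.11 ± 0.353 CPM in untreated worms, 6.29 ± 0.845 under curcumin, 6.05 ± 1.09 under sulforaphane and 3.95 ± 0.568 under both (SD, n = 4) and an interaction of -0.91 (SE 0.22, adjusted p 0.0476 in edgeR). That call was lost, at adjusted p from 0.0552 to 0.118 (all alternatives 0.0133 to 0.118), without control replicate 1, 3 or 4, curcumin replicate 1, 2 or 3, sulforaphane replicate 3 or 4, or combination replicate 1 or 2, and the gene overlaps Y54E10BR.2. The peptide gene *nlp-34*, one of the epidermal antimicrobial list, had 5.10 ± 0.775 CPM in untreated worms, 8.41 ± 1.05 under curcumin, 3.27 ± 1.60 under sulforaphane and 15.6 ± 6.24 under both (SD, n = 4) and an interaction of 1.54 (SE 0.38, adjusted p 0.0463 in edgeR). It was lost, at adjusted p from 0.0635 to 0.12 (all alternatives 1.43e-08 to 0.129), without control replicate 1, 2 or 3, any curcumin replicate, sulforaphane replicate 1 or 3, or combination replicate 3 or 4. The DESeq2 Wald test gave 0.0857 for *nlp-34*.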

How the data were processed

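PolyA RNA libraries of whole worms, 4 in each of 4 groups, had total counts of 14315538 to 19964755. The authors deposited raw read counts per gene and FPKM values. HISAT2 2.0.5, featureCounts 1.5.0-p3, StringTie 1.3.3b, DESeq2 1.20.0 and the genome build WBcel235 are named per the submitters' processing notes, without their roles, and strandedness is not given in the sources used here. Of 47029 gene IDs, 46920 matched RefSeq.

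Counts were fitted in edgeR 4.0.16 (R 4.3.3) with 1 mean per group, TMM factors and the quasi-likelihood test, after a filter (minimum count 10, total 15) that kept 14328 genes. P-values are two-sided and adjusted by Benjamini-Hochberg over these genes, and a call is an adjusted p under 0.05. The edgeR SE is the size of the log2 value divided by the square root of F. The linear interaction was tested in limma 3.58.1 on CPM divided by the gene's mean, weighted by the inverse negative binomial variance, with group means held to at least 3 counts. Both tests were also run on simulated counts, and the outcome is not reported here. Alternatives were DESeq2 1.42.0, limma on log2 FPKM (pseudocounts 1 and 0.1), other scalings and filters, linear tests without weights and on FPKM, a replicate block, and each replicate left out.

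Genes named had a mean of at least 5 CPM and the 8 largest interactions of each sign, or were the 3 with the smallest p in a class, or in a list (no CPM condition). From genes called on the linear scale alone came the 4 largest of each sign, and any called with opposite signs on the 2 scales. Others were chosen after their values were seen. Members and lists were chosen with earlier results of these data known. The 24 replicate pairs within groups all differed by more than sampling noise (chi-square per degree of freedom at least 3.07). No molecular identifiers are named in the sources used here.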

Additional observations from a re-analysis of the deposited data

Results flagged for a closer look

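Among 284 groups of 4 libraries (71 named genes in 4 groups), 14 held a library far from the other 3 by Dixon's test at 95%, where chance alone marks about 1 group in 20. Replicate 4 stood high in *asp-18* with sulforaphane (2.14 CPM) and with both compounds (0.969), in *scl-19* with sulforaphane (0.440) and with both (0.484), and in *hsp-4* with both (125), and low in *scl-2* with both (239.7). Replicate 1 stood high in *spp-21* with sulforaphane (0.141 CPM), *pmp-4* with both (134), T16G1.7 with curcumin (35.6) and *dhs-19* in the control (93.4). Replicate 2 stood high in F55G11.4 with sulforaphane (5719 CPM), Y105C5B.15 with both (354) and *clec-209* with both (5.14). Replicate 3 stood low in *ech-7* with curcumin (37.8 CPM). Without the library concerned, each of these genes kept the direction of its interaction.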

How the results depend on the processing

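With genes having at least 1 read in any sample, 352 genes were called for the log2 interaction and 151 on both scales. The DESeq2 Wald test called 224, of which 139 were among the 142. Other scalings, filters and FPKM gave 98 to 146 genes on the log2 scale and 189 to 220 on the linear scale. With 1 replicate left out at a time, edgeR called 107 to 161 genes on the log2 scale, limma 149 to 225 on the linear scale, and 65 to 111 were called on both. The counts against control were 1739 to 2213 for curcumin, 735 to 1142 for sulforaphane and 2902 to 3448 for the combination. Against the combination they were 856 to 1086 for curcumin and 2269 to 2759 for sulforaphane. Not every one of the 26 alternatives tested every named gene. DESeq2 and limma on log2 FPKM gave only the log2 interaction, and the linear tests without weights and on FPKM only the linear one. A filter of at least 10 counts in every sample left out genes with fewer reads, such as *spp-21* and F55G11.3. The 71 named genes kept their direction in each alternative that tested them, and 48 kept their call in all of those. The cause of these differences was not tested.

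Replicate numbers recur in all groups, but nothing in the labels pairs them. Same-numbered libraries had a mean correlation of residuals of 0.109 over 24 pairs, 12 of them over 0.1, against -0.036 over 72 other pairs, and replicate number made up 85.4% of the third principal component (7.35% of the variance). With a replicate block, edgeR called 318 genes for the log2 interaction, including all 142, and 1469 for sulforaphane against control, while limma called 481 on the linear scale, and 267 were called on both. Low counts limit *spp-21*, *clec-4*, *clec-167*, *asp-18*, *scl-19* and F55G11.3, whose fitted sizes depend on a few reads.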
